A study of Triticum aestivum with 12 samples.

Results

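Among 107891 wheat gene identifiers, 91 rose in axillary bud and fell in shoot apex after vernalization. They were chosen by their TPM (transcripts scaled to a fixed library total, a level normalized for gene length) in the 8 bud and apex libraries. The lower vernalized axillary bud library had to reach 5 TPM and 3 times the higher axillary bud library. The lower shoot apex library had to reach 5 TPM, and the higher vernalized shoot apex library had to stay at least 3-fold below it. The opposite movement in bud and apex is therefore what defined the genes and is given as a description, while leaf took no part in the choice.

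RNA-seq came from the winter wheat (Triticum aestivum) cultivar AK58, with 2 libraries in each of 6 groups. The groups leaf, axillary bud and shoot apex are tissues of plants grown for 2 weeks in cycles of 16 h of light at 22 °C and 8 h of dark at 19 °C. Vernalized leaf, vernalized axillary bud and vernalized shoot apex came from plants that then spent 1 month at 4 °C, with 16 h of light, and 1 day back in the greenhouse. The vernalized plants were thus also older, and cold and age cannot be told apart in any tissue. All groups are the same cultivar with no transgene or mutation named in the labels. The study calls its replicates biological, without saying whether the 2 libraries of a group came from separate plants. TPM keep no record of the reads behind a gene, so depth was unknown and counting intervals cannot be had. Where a file gives 0, the gene is called listed at 0.

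Vernalization is the prolonged cold that winter cereals need before they can flower. The shoot apex holds the meristem that forms leaves and, once the requirement is met, turns to forming the inflorescence. Axillary buds hold meristems of the same kind in the axils of leaves and can grow out into tillers, and leaves sense part of the seasonal signal and send it to the apex. Bread wheat is hexaploid, so most genes are present as homoeologues (corresponding copies) in the A, B and D sub-genomes. An identifier gives the chromosome and, through its number, the order along it. The reference table used here matched 0 of the 91 identifiers and the list of 53 SPL genes, a family of plant transcription factors, contained 0 of them, so that no gene name or function is given for any of the genes, and the tissues could not be checked against named marker genes.

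The set was a small part of what rose in bud and a large part of what fell in apex. Under the same thresholds, 1555 identifiers rose in axillary bud, of which the 91 were 5.85%. In shoot apex 282 fell, of which the 91 were 32.3%. Both shares grow when the minimum that the rule sets in the other tissue is required first, to 11.5% of the 791 that rose in bud and reached 5 TPM in both apex libraries and to 57.6% of the 158 that fell in apex and reached 5 TPM in both vernalized bud libraries. The mirrored pattern, a fall in bud with a rise in apex, was met by 8 identifiers, 1.14% of the 702 that fell in bud and 6.06% of the 132 that rose in apex. Another 18 rose in both tissues, and 0 fell in both under these thresholds. The bud and the apex comparison share no library. The size of the set depends on the scale of the libraries, since 49 of the 91 (53.8%) also met the rule once each library was divided by its median ratio to a common reference.

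Across the 91 genes, the median level in vernalized bud was near that of the apex before vernalization on the deposited TPM. The median was 1.03 and 0.755 TPM in the 2 axillary bud libraries and 23.5 and 26.1 TPM in the vernalized ones. In shoot apex it was 25.0 TPM in both libraries, and 4.30 and 2.75 TPM after vernalization. Both vernalized bud libraries thus lay near both apex libraries by this measure, while bud before and apex after the cold were low, as the rule requires. The rule also set the same minimum of 5 TPM in vernalized bud and shoot apex. The rescaling factors were 1.38 and 1.35 in vernalized bud and 1.18 and 0.745 in shoot apex. Dividing by them lowers vernalized bud relative to apex, so this likeness depends on the scale. Summed over the genes, TPM were 513 and 307 in axillary bud, 5011 and 5454 in vernalized axillary bud, 6874 and 8216 in shoot apex and 1433 and 1281 in vernalized shoot apex. In bulk tissue, a change in the number of cells that use a gene and a change in its RNA per cell cannot be told apart.

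**Figure D1:**
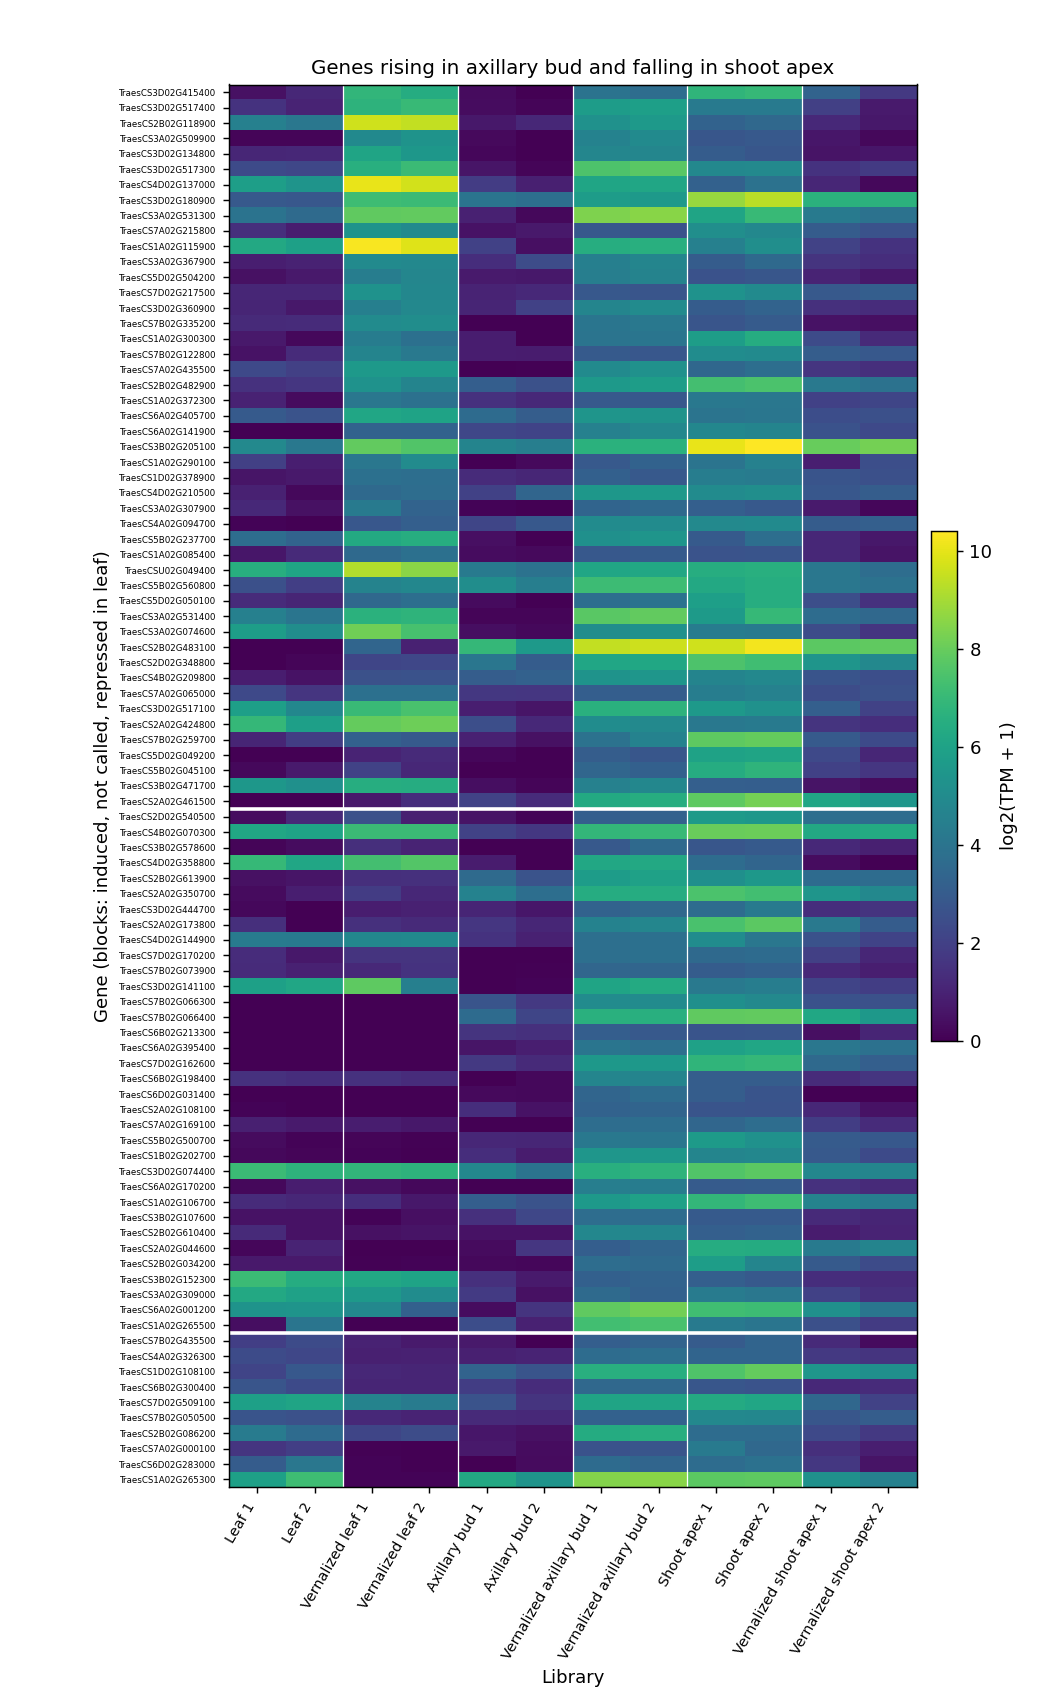
Level of the 91 genes (rows) in the 12 libraries (columns), as log2(TPM + 1) from dark (0) to yellow, with white lines between groups. Rows are in blocks of 47 genes called induced in leaf, 34 not called and 10 called repressed, each ordered by leaf log2 fold change. The vernalized bud and the shoot apex columns are bright and the bud and vernalized apex columns dark in every block, as the rule fixed, while the leaf columns differ between blocks.

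Gene by gene, the 2 tissues were less alike than their medians. The mean in vernalized bud divided by the mean in shoot apex had a median of 1.18 and ranged from 0.0801 to 9.49. On the deposited TPM, both vernalized bud libraries were above both apex libraries for 46 genes and below both for 40, and the libraries overlapped for 5. On the same scale, the mean was highest in shoot apex for 37 genes, in vernalized bud for 28, in vernalized leaf for 24 and in leaf for 2. The fold between the means of vernalized and non-vernalized bud had a median of 15.0 over the 85 genes above 0 in bud, and the fold between apex before and after had a median of 6.15. Both vernalized apex libraries were above both axillary bud libraries for 63 genes and below both for 8, and the libraries overlapped for 20. The rule used all of these libraries and kept axillary bud low. No count over all identifiers is given beside these library comparisons, so they are descriptions of the set only.

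**Figure D2:**
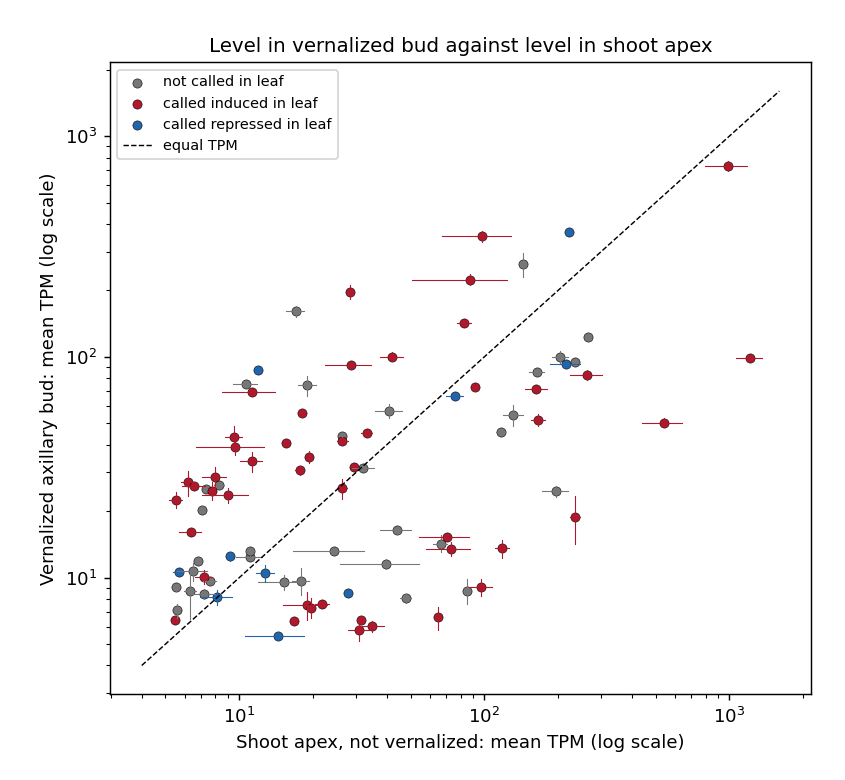
Mean TPM of the 91 genes in shoot apex before vernalization (horizontal, log scale) and in vernalized axillary bud (vertical, log scale). Thin lines join the 2 libraries of a group, colours give the call in leaf and the dashed line marks equal TPM. In 46 genes both vernalized bud libraries were above both apex libraries and in 40 both were below, without a count over all identifiers for comparison.

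The replicates of these genes were closest in vernalized bud. The median SD was 6.80% of the mean there, 9.60% in shoot apex, 22.7% in vernalized shoot apex and 51.2% in axillary bud, where levels were lowest. In leaf it was 32.2% and in vernalized leaf 17.0%. The rule looked at the lower vernalized bud and the lower shoot apex library, which favours genes whose replicates agree there. No spread over all identifiers is given for comparison. Axillary bud replicate 1 was above replicate 2 in 64 genes, and replicate 2 was under 0.5 times replicate 1 in 32. Their rescaling factors were 1.12 and 1.03, and the same counts over all identifiers were not made. Vernalized shoot apex replicate 1 was above replicate 2 in 69. The rescaling factors of these 2 libraries were 1.05 and 0.722, so replicate 1 was also the higher one, by the median, over the 21695 identifiers used for scaling. The part of these replicate differences in the choice of genes is given by leaving out libraries. Since a missing library can only relax the rule, all 91 stayed and the count rose to between 94 and 154, with 154 when vernalized shoot apex replicate 1 was left out and 138 when replicate 2 of shoot apex was.

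The levels of abundant leaf transcripts are given beside the set as a description. The 20 other identifiers with at least 1000 TPM in all 4 leaf libraries, where they summed to between 88222 and 150530 TPM, summed to 2483 and 1607 TPM in axillary bud and to 1057 and 890 TPM in vernalized axillary bud. In shoot apex they summed to 66.9 and 78.1 TPM, with 6 and 5 of the 20 listed at 0, and in vernalized shoot apex to 99.5 and 109 TPM, with 4 and 2 listed at 0. On the deposited TPM the sums were thus lower in vernalized bud and higher in vernalized apex, while the rule fixed the other direction for the 91 genes. These identifiers were abundant in leaf before and after vernalization and were chosen after their values were seen. They do not represent genes that rose in leaf, and what the sums mean for the 91 genes was not tested.

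The widest separation in both tissues was found in 6 genes, taken by the smaller of their bud and apex ratios. TraesCS6D02G031400 had 0.216 and 0.163 TPM in axillary bud, 9.66 and 11.7 in vernalized bud, 7.39 and 5.59 in shoot apex and 0.00904 and 0.0223 in vernalized apex. In leaf it was at 0.0133 and 0.0276 TPM and listed at 0 in both vernalized libraries. This gene was hence close to absent from 4 of the 6 groups and its level was similar in the other 2.

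TraesCS4D02G358800 had 0.741 and 0.0253 TPM in axillary bud, 74.5 and 75.8 in vernalized bud, 11.8 and 9.47 in shoot apex and 0.269 and 0 in vernalized apex. In leaf it was high before (123 and 70.3 TPM) and after vernalization (155 and 195). Leaf was its main site of expression in both states, and vernalized bud reached the level of the lower leaf library. Its leaf change of 0.89 on the log2 scale (standard error 0.32, limma adjusted p = 0.0228) stayed below 2-fold on the deposited scale. It was called induced without leaf replicate 1 (1.29) and after rescaling (2.40).

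TraesCS3B02G471700 also combined leaf expression with the switch in bud and apex. It had 0.311 and 0.0955 TPM in axillary bud, 22.5 and 27.1 in vernalized bud, 7.82 and 7.64 in shoot apex and 0.466 and 0.244 in vernalized apex. In leaf it went from 44.1 and 36.1 to 87.9 and 86.9 TPM, and was called induced (1.11 on the log2 scale, standard error 0.22, limma adjusted p = 0.000554), and the call was lost without leaf replicate 2 (0.97).

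The other 3 of the 6 were apex genes above all. TraesCS7B02G259700 had 223 and 247 TPM in shoot apex and 6.62 and 4.05 in vernalized apex, against 0.935 and 0.383 in axillary bud and 14.2 and 23.4 in vernalized bud. TraesCS5B02G045100 fell in apex from 86.4 and 107 to 3.03 and 2.14 TPM, and was listed at 0 in both axillary bud libraries and at 9.84 and 8.22 TPM in vernalized bud. TraesCS5D02G049200 had 62.7 and 66.9 TPM in shoot apex and 3.86 and 1.17 in vernalized apex, 0.144 and 0 in axillary bud and 7.39 and 5.81 in vernalized bud. In these 3 genes the vernalized bud stayed at between 0.0801 and 0.102 times the apex level. All 3 were low in leaf and were called induced there, from 1.12 and 2.72 to 8.51 and 6.70 TPM, from 0.159 and 0.661 to 3.11 and 1.22 TPM, and from 0 in both libraries to 1.04 and 1.33 TPM. Those leaf calls were not stable when a library was left out. The first was lost without leaf replicate 1, with a change still above 2-fold (log2 fold change 1.20). The second was lost without leaf replicate 1 (0.86) or vernalized leaf replicate 1 (0.68). The third was lost whichever of the 4 leaf libraries was left out, with changes that stayed above 2-fold (1.03 to 1.22).

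The 6 genes with the highest level in vernalized bud had means between 197 and 735 TPM. TraesCS2B02G483100 was the highest, at 698 and 773 TPM against 120 and 48.4 in axillary bud, with 795 and 1180 in shoot apex and 220 and 229 in vernalized apex. Leaf listed it at 0 in each replicate, vernalized leaf had 9.5 and 0.954 TPM, and it was called induced there (log2 fold change 2.18, standard error 0.62, adjusted p = 0.00656 from limma). The 2 vernalized leaf libraries differed widely, and the call was lost without either leaf library or without vernalized leaf replicate 1 (0.97).

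TraesCS6A02G001200 had 0.270 and 1.97 TPM in axillary bud, 230 and 295 in vernalized bud, 147 and 140 in shoot apex and 35.9 and 16.1 in vernalized apex. It was at 39.4 and 40.3 TPM in leaf and at 27.6 and 8.04 in vernalized leaf, and was not called there (log2 fold change -1.34, adjusted p = 0.0351 from limma). The 2 vernalized leaf libraries were far apart, and the change was -2.18 with a call without replicate 1 of vernalized leaf, -0.51 without replicate 2 and 0.10 after scaling, the latter values without a call. The remaining 4 of the 6, TraesCS1A02G265300, TraesCS3A02G531300, TraesCS3A02G531400 and TraesCS3D02G517300, belong to runs of neighbouring genes described further on.

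Whether the same genes responded in leaf was tested, because leaf is the tissue that the choice did not use. Of the 91, 47 (51.6%) were called induced by vernalization in leaf and 10 (11%) repressed. Over all 60326 identifiers tested, 12.3% were called induced and 46.2% repressed. The share induced was above that of all identifiers and the share repressed below it, so that in leaf the direction of bud was the more frequent one. All 91 were among those tested, since the rule itself asks for 5 TPM. The calls used limma on log2(TPM + 1) of all 12 libraries, and required more than a 2-fold change together with p under 0.01, two-sided and before adjustment. At 0.05 after Benjamini-Hochberg adjustment, 47 were induced and 12 repressed, against 12.5% and 46.6% of all identifiers tested. With 2 libraries in a group, an exact permutation test of a single gene cannot go below p = 0.333, so that all calls rest on the spread shared across genes. That spread also came from the 8 bud and apex libraries, whose replicate agreement the rule used, so the p-values are not fully separate from the choice. When the leaf libraries were fitted alone, 41 were induced and 9 repressed. In that fit TraesCS3D02G517100, TraesCS7B02G259700, TraesCS5B02G045100 and TraesCS2B02G483100 lost their call.

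Scaling raised the leaf fold changes of the 91 genes and of all identifiers. The median leaf log2 fold change was 1.11 for the 91 and -0.90 for all identifiers tested on the deposited scale. After median-of-ratios scaling the medians were 2.40 and -0.02, and 59 of the 91 were called induced and 3 repressed, against 23.1% and 17% of all identifiers tested. All 47 induced genes were again called induced. Among the 49 genes that met the rule on both scales, 24 (49.0%) were called induced in leaf and 5 (10.2%) repressed on the deposited scale.

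For comparison, the 1464 identifiers that rose in bud without falling in apex had 397 (27.1%) called induced in leaf and 342 (23.4%) repressed. The 191 that fell in apex without rising in bud had 58 (30.4%) induced and 29 (15.2%) repressed. These shares are descriptions, and their differences from the 91 genes were not tested.

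**Figure D3:**
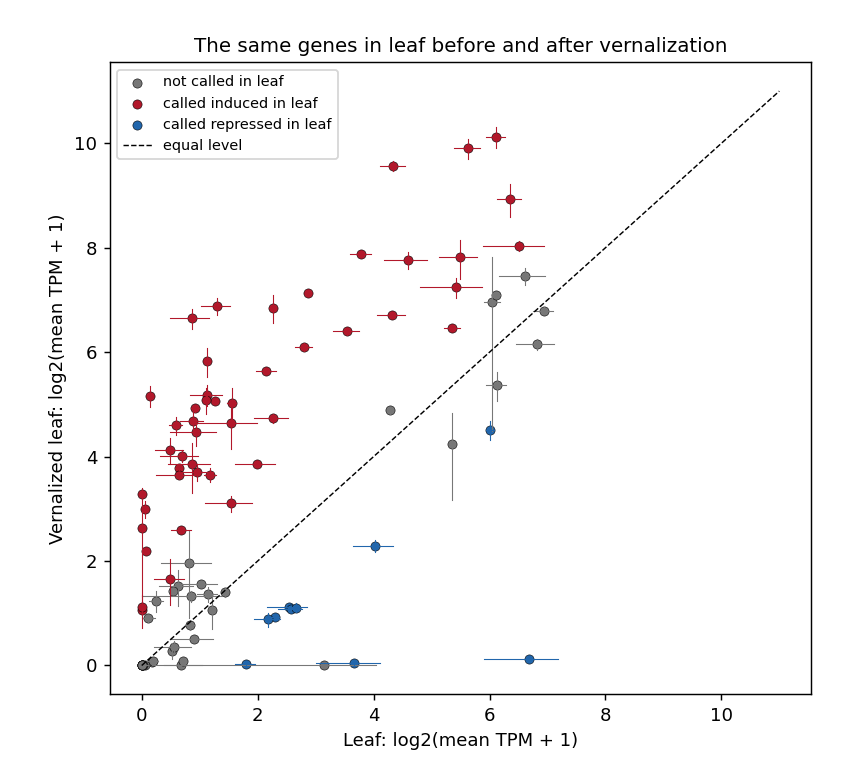
Mean level of the 91 genes in leaf before (horizontal) and after vernalization (vertical), both as log2(TPM + 1), with thin lines joining the 2 libraries of a group. Colours give the limma call in leaf and the dashed line marks equal level. The 47 induced genes lie above the line and the 10 repressed genes below it, on the deposited scale, where the median of all genes tested was -0.90.

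Over all 91 genes the median level was 1.40 and 1.24 TPM in leaf, against 10.6 and 8.86 TPM in vernalized leaf. The leaf-induced genes were mostly low in leaf before the cold. Their median of group means was 1.27 TPM in leaf and 31.6 TPM in vernalized leaf. On the deposited TPM this was close to the 30.6 TPM of vernalized bud and the 28.4 TPM of shoot apex. The rescaling factors were 0.623 and 0.530 in vernalized leaf, 1.38 and 1.35 in vernalized bud and 1.18 and 0.745 in shoot apex. Dividing by them raises vernalized leaf relative to both, so this likeness depends on the scale. For 21 of the 47, vernalized leaf was the group with the highest mean on the deposited TPM. The log2 fold changes ranged from 1.03 to 5.81.

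TraesCS3D02G415400 had the largest, from 0.397 and 1.24 TPM in leaf to 113 and 86.1 in vernalized leaf (log2 fold change 5.81, standard error 0.42, adjusted p = 2.95e-07 from limma). The same gene had 110 and 126 TPM in shoot apex, 9.06 and 2.34 in vernalized apex, 0.248 and 0 in axillary bud and 14.8 and 12.3 in vernalized bud. On the deposited TPM, its level in vernalized leaf was thus near that of the apex before vernalization, and bud stayed well below both.

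TraesCS3A02G509900 rose in leaf from 0.107 and 0.112 to 29.7 and 40.1 TPM (log2 fold change 5.0, adjusted p = 1.51e-08). It had 0.201 and 0 TPM in axillary bud, 23.5 and 30.4 in vernalized bud, 5.81 and 6.57 in shoot apex and 0.549 and 0.181 in vernalized apex. Leaf and bud before the cold were here equally close to 0. On the deposited TPM, vernalized leaf and vernalized bud reached similar levels, a likeness that depends on the scale. TraesCS3D02G134800 behaved likewise in leaf, at 1.16 and 1.20 TPM before and 67.0 and 45.2 after (4.68, adjusted p = 1.68e-08), with 26.2 and 26.1 TPM in vernalized bud against 0.121 and 0 in axillary bud. In shoot apex it had 7.27 and 5.81 TPM, and 0.460 and 0.540 after vernalization.

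The 3 genes with the highest level in vernalized leaf were already well expressed in leaf before vernalization. TraesCS1A02G115900 rose there from 76.2 and 60.2 to 1276 and 960 TPM (log2 fold change 4.01, standard error 0.44, adjusted p = 6.58e-06 from limma). In bud it had 3.06 and 0.329 TPM before and 89.2 and 95.0 after, and in apex 22.4 and 34.5 before and 3.17 and 1.85 after. Leaf and bud moved together in this gene and apex moved the other way.

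TraesCS4D02G137000 rose in leaf from 56.1 and 40.7 to 1081 and 829 TPM (4.28, adjusted p = 1.31e-06), with 2.56 and 0.90 TPM in axillary bud and 68.8 and 69.5 in vernalized bud. In shoot apex it had 8.50 and 14.0 TPM, and 1.20 and 0.164 after vernalization. TraesCS2B02G118900 rose in leaf from 22.3 and 16.2 to 814 and 704 TPM (5.24, adjusted p = 2.68e-08), with 0.60 and 1.23 TPM in axillary bud and 37.9 and 48.8 in vernalized bud, 8.76 and 10.3 in shoot apex and 1.31 and 0.583 in vernalized apex. In all 3 genes, vernalized leaf was above every bud and apex library.

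The 10 leaf-repressed genes had a median of group means of 5.12 TPM in leaf and 1.01 TPM in vernalized leaf. TraesCS1A02G265300 fell in leaf from 58.9 and 144 to 0.0794 and 0.0867 TPM (log2 fold change -6.43, standard error 0.40, adjusted p = 9.68e-08 from limma). In bud it rose from 77.8 and 41.3 to 357 and 380 TPM, and in apex it went from 219 and 224 to 37.0 and 22.8 TPM. It was thus well expressed in all 3 tissues before the cold and close to 0 in vernalized leaf alone.

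TraesCS6D02G283000 fell in leaf from 7.07 and 16.4 to 0.0797 and 0 TPM (-3.51, adjusted p = 7.69e-06), and had 0 and 0.244 TPM in axillary bud, 11.4 and 9.58 in vernalized bud, 11.7 and 13.9 in shoot apex and 2.22 and 0.445 in vernalized apex. TraesCS7A02G000100 fell from 2.06 and 2.86 to 0.0287 and 0 TPM in leaf (-1.76, adjusted p = 0.000118), with 0.644 and 0.264 TPM in axillary bud, 5.22 and 5.65 in vernalized bud, 18.3 and 10.5 in shoot apex and 1.65 and 0.856 in vernalized apex. These 3 genes stayed repressed in leaf after scaling, at -5.64, -2.84 and -1.28.

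For the next largest changes the call depended on the scale. TraesCS2B02G086200 went from 19.1 and 11.5 to 3.54 and 4.29 TPM in leaf (-1.69, adjusted p = 0.000118, and -0.37 without a call after scaling). In bud it had 0.540 and 0.398 TPM before and 84.8 and 90.4 after, and in apex 11.8 and 12 before and 3.92 and 2.33 after. TraesCS7B02G050500 went from 5.59 and 5.0 to 1.28 and 1.03 TPM in leaf (-1.55, adjusted p = 2.69e-05, and -0.49 without a call after scaling), with 1.34 and 1.32 TPM in axillary bud, 8.36 and 8.65 in vernalized bud, 28.2 and 27.5 in shoot apex and 5.84 and 7.41 in vernalized apex. The leaf libraries did not overlap in either gene on the deposited scale.

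Of the 34 genes without a call in leaf, 14 were below 1 TPM in all 4 leaf libraries, and 5 of the 91 were listed at 0 in all 4. At the other end, 23 of the 91 had at least 5 TPM in every leaf library. Among the uncalled genes, TraesCS3D02G074400 had the highest mean in leaf before vernalization, with 136 and 106 TPM before and 116 and 105 after (log2 fold change -0.13, adjusted p = 0.721 from limma). Its direction turned with the scale, to 1.38 with a call after scaling. In bud it had 28.2 and 14.8 TPM before and 92.7 and 107 after, and in apex 188 and 220 before and 27.0 and 25.6 after. TraesCS3B02G152300 had 137 and 86.7 TPM in leaf and 75.1 and 64.9 in vernalized leaf (-0.64, adjusted p = 0.0554, and 0.86 after scaling, neither with a call), and was far lower elsewhere, at 1.68 and 0.70 in axillary bud, 8.02 and 8.91 in vernalized bud, 7.96 and 6.40 in shoot apex and 1.57 and 1.46 in vernalized apex.

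The 91 genes lay on all 3 sub-genomes, with 33 on A, 30 on B and 27 on D, and 1 on no assigned chromosome. These are 36.3%, 33.0% and 29.7% of the set, against 33.2%, 31.6% and 34.2% of the identifiers above 5 TPM in any library. By homoeologous group, 22 (24.2%) were on group 3, 17 (18.7%) on group 7 and 15 (16.5%) on group 2, against 15.3%, 13.8% and 16.2% of the identifiers above 5 TPM. Groups 1, 4, 5 and 6 held 11, 8, 7 and 10, which are 12.1%, 8.79%, 7.69% and 11% of the set against 12.7%, 12.9%, 16.3% and 11.7%. In all, 11 of the genes stood within 5 identifiers of another along the chromosome, in 5 runs. Reads that fit more than 1 near-identical neighbour or homoeologue may be shared between them, and how such reads were counted is not given in the sources used here.

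The longest run was on chromosome 3D. TraesCS3D02G517100 had 0.822 and 0.494 TPM in axillary bud, 95.8 and 105 in vernalized bud, 46.5 and 37.5 in shoot apex and 7.94 and 3.14 in vernalized apex. TraesCS3D02G517300 had 0.520 and 0.114, 182 and 211, 27.8 and 29.1, and 1.85 and 2.36 TPM in the same order of groups. TraesCS3D02G517400 had 0.276 and 0.113, 53.6 and 58.2, 18.1 and 17.8, and 2.89 and 0.680 TPM. All 3 were called induced in leaf, where their levels before vernalization differed. TraesCS3D02G517100 went from 57.2 and 27.0 to 131 and 170 TPM (log2 fold change 1.90, adjusted p = 0.000817 from limma), while TraesCS3D02G517300 went from 4.00 and 3.58 to 93.0 and 136 TPM (4.57, adjusted p = 3.54e-08) and TraesCS3D02G517400 from 1.88 and 1.03 to 104 and 130 TPM (5.60, adjusted p = 7.36e-08).

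Chromosome 3A held a pair of adjacent identifiers with a similar profile. TraesCS3A02G531300 had 0.92 and 0.159 TPM in axillary bud, 332 and 372 in vernalized bud, 67.4 and 129 in shoot apex and 18.5 and 14.3 in vernalized apex. TraesCS3A02G531400 had 0.0959 and 0.118, 211 and 236, 50.5 and 124, and 11.8 and 10.5 TPM. In both, shoot apex replicate 2 was well above replicate 1. In leaf they went from 14.5 and 11 to 231 and 237 TPM (log2 fold change 4.11, adjusted p = 6.87e-07 from limma) and from 22.3 and 15.7 to 99.3 and 107 TPM (2.40, adjusted p = 5.93e-05). Neither of these genes met the rule after rescaling, whereas the 3 genes on 3D did.

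**Figure D4:**
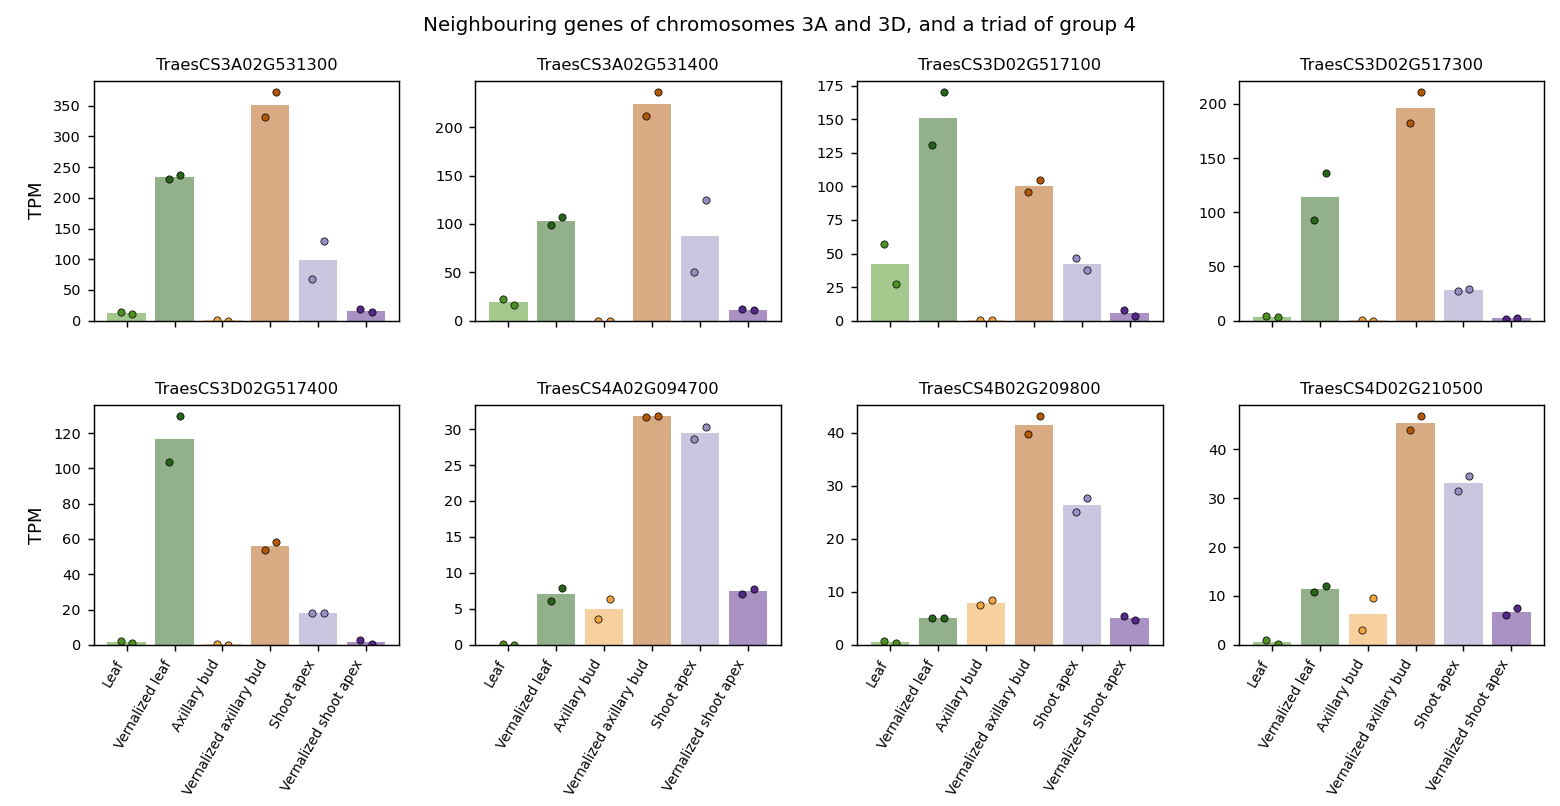
TPM of the neighbouring genes on chromosomes 3A and 3D and of the 3 homoeologues of a group 4 triad in the 6 groups, with bars for the mean and points for the 2 libraries. Each vertical axis starts at 0 and has its own range. In all 8 genes vernalized leaf and vernalized bud were above leaf and bud, and vernalized apex was below apex.

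The other 3 runs were pairs. On chromosome 1A, TraesCS1A02G265500 had 4.56 and 0.914 TPM in axillary bud, 152 and 170 in vernalized bud, 18.4 and 15.5 in shoot apex and 4.87 and 2.50 in vernalized apex, next to the leaf-repressed TraesCS1A02G265300 given above. It had 0.298 and 15.5 TPM in leaf and was listed at 0 in both vernalized leaf libraries, without a call (log2 fold change -2.21, adjusted p = 0.0332 from limma), and the 2 leaf replicates were far apart. At the threshold of 0.05 on the adjusted p, TraesCS1A02G265500 counted as repressed. Without leaf replicate 1 its log2 fold change was -4.04.

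On chromosome 2B, TraesCS2B02G482900 had 7.73 and 5.04 TPM in axillary bud, 48.8 and 55.0 in vernalized bud, 155 and 178 in shoot apex and 17.7 and 14.1 in vernalized apex, close to TraesCS2B02G483100, the most abundant of the set in vernalized bud. It was called induced in leaf, from 1.77 and 2.10 to 38.6 and 24.6 TPM (log2 fold change 3.44, adjusted p = 5.62e-07 from limma). On chromosome 7B, TraesCS7B02G066300 had 5.54 and 2.34 TPM in axillary bud, 31.2 and 31.4 in vernalized bud, 35.3 and 28.8 in shoot apex and 5.10 and 5.01 in vernalized apex, and TraesCS7B02G066400 had 11.5 and 3.57, 97.8 and 92.7, 233 and 238, and 72.6 and 45.4 TPM. Both genes on 7B were listed at 0 in all 4 leaf libraries. Members of a run thus shared an induced call in leaf on 3D, 3A and 2B, where the call of TraesCS2B02G483100 was not stable. The 7B genes had no leaf level above 0 to compare. On 1A one of the 2 was called repressed, and the other only at the adjusted threshold of 0.05.

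Homoeologues could be read for 6 of the 91 genes, from the part of the study's list of triads (1 copy in each sub-genome) that was at hand, with 1998 entries. In 1 triad all 3 copies belonged to the set. TraesCS4A02G094700 had 3.56 and 6.39 TPM in axillary bud, 31.7 and 31.8 in vernalized bud, 28.6 and 30.3 in shoot apex and 7.05 and 7.83 in vernalized apex. TraesCS4B02G209800 had 7.42 and 8.51, 39.7 and 43.1, 25.0 and 27.8, and 5.46 and 4.69 TPM, and TraesCS4D02G210500 had 3.02 and 9.64, 44.0 and 46.8, 31.5 and 34.7, and 6.16 and 7.46 TPM. In leaf all 3 were induced from below 1 TPM, with log2 fold changes of 2.94, 1.92 and 3.05 (adjusted p = 9.7e-07, 7.03e-06 and 1.89e-05 from limma) and at most 12 TPM in vernalized leaf. Their movement in bud and apex was fixed by the rule, and leaf was the tissue left free.

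In another triad the copies parted in apex. TraesCS4B02G070300, which belongs to the set, had 3.15 and 2.25 TPM in axillary bud, 119 and 127 in vernalized bud, 261 and 267 in shoot apex and 76.3 and 81.1 in vernalized apex. Its A copy TraesCS4A02G245100 had 4.49 and 3.03 TPM in axillary bud and 136 and 148 in vernalized bud, but 275 and 267 in shoot apex and 223 and 226 in vernalized apex. The D copy TraesCS4D02G069100 had 2.28 and 2.25, 85.8 and 90.9, 107 and 117, and 105 and 106 TPM. All 3 copies were higher in vernalized than in non-vernalized bud, and the 3-fold lower level in vernalized apex was that of the B copy alone. Since the B copy was selected on this value, the difference between copies was not tested.

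The homoeologues of TraesCS4D02G137000, TraesCS4A02G175600 and TraesCS4B02G142200, missed the set by their level or ratio in apex. The first had 3.63 and 4.04 TPM in shoot apex and 0.213 and 1.01 in vernalized apex, and the second 7.47 and 11 TPM and 2.66 and 1.73. In leaf the A copy had 13.9 and 11.5 TPM before and 1021 and 652 after, and the B copy 35.1 and 29.9 before and 858 and 689 after. In vernalized bud they had 15.9 and 13.3 and 48.3 and 57.3 TPM, against at most 1.93 TPM in axillary bud.

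The borders of the set were drawn by thresholds that neighbouring values straddle. The bud ratio (lower vernalized library over higher non-vernalized library) was 3.21 for TraesCS3B02G107600 and 3.23 for TraesCS3D02G180900, just inside, and 2.95 for TraesCS2B02G056700 and 2.86 for TraesCS6A02G318600, just outside. The apex ratio was 3.02 for TraesCS2B02G086200 and 3.07 for TraesCS2B02G613900 inside, and 2.99 for TraesCS2A02G489500 and 2.96 for TraesCS6D02G346800 outside.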

How the data were processed

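RNA-seq of 12 libraries was used. Per the labels and the study's methods, the authors trimmed reads with fastp 0.21.0, mapped the rest by HISAT2 on the IWGSC RefSeq v1.0 genome, sorted alignments with SAMtools 1.3.1 and calculated TPM with TPMCalculator, and these TPM, as deposited by the authors, are the values used here. TPM keep no depth.

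The rule for the set was applied to the TPM of all 107891 identifiers. For leaf, every identifier whose highest group mean exceeded 1 TPM entered limma 3.58.1 (R 4.3.3) on log2(TPM + 1), with 1 coefficient per group over 12 libraries and moderation with a trend. Fold changes on this scale understate the change of low genes. The fit was checked on simulated data. Python 3.11.15 with pandas 2.3.3 served for the rest. The members and lists were chosen with earlier results of these data known.

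Named are the 6 genes with the largest smaller ratio, the 6 highest in vernalized bud, the 5 largest leaf changes in each direction among called genes, the 3 highest in leaf before and after, runs of neighbours, triads with at least 2 members, and the 2 genes on either side of each threshold. The abundant leaf identifiers, homoeologues outside the set and the pairs in the closing section were chosen after their values were seen. Alternatives were another pseudocount, filter, scaling, fit and threshold, leaving out each library, and, chosen after seeing the data, ratios within same-numbered libraries.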

Additional observations from a re-analysis of the deposited data

Results flagged for a closer look

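Of the 10 genes called repressed in leaf, 3 were called on both the deposited and the rescaled TPM, while bud rose by the rule, so that leaf and bud moved in opposite directions. They are TraesCS1A02G265300 (leaf log2 fold change -6.43), TraesCS6D02G283000 (-3.51) and TraesCS7A02G000100 (-1.76). The difference between leaf and bud was not tested, because the bud libraries chose the genes.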

How the results depend on the processing

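The number of genes in the set moved with the rule: 240 with a fold of 2, 52 with a fold of 4, 211 with a minimum of 2 TPM, 48 with a minimum of 10 TPM, 203 with group means and 55 after median-of-ratios scaling, of which 49 are among the 91. Leaving out each bud or apex library gave 94 to 154 and ratios within same-numbered libraries, added after seeing the data, 120. In leaf, induced calls were between 41 and 59 and repressed calls between 3 and 12 over all alternatives. Scaling gave 3 repressed genes and a median log2 fold change of 2.40, and a pseudocount of 0.1 a median of 2.04. Leaving out each leaf library gave 43 to 47 induced genes, 8 to 10 repressed genes and medians of 1.06 to 1.52. After scaling the direction turned in 3 of 33 named genes, TraesCS3D02G074400 (1.38), TraesCS3B02G152300 (0.86) and TraesCS6A02G001200 (0.10). With the replicate block, 46 were induced and 10 repressed. The numbers do not pair leaf libraries (correlation of replicate differences -0.07), although shoot apex and vernalized shoot apex replicates of the same number deviated together (0.74). For the named genes, 252 of 264 leaf values under alternatives that keep all leaf libraries, the fit of leaf alone included, stayed on their side of the threshold. The share was lower when a leaf library was left out. TPM hold no depth, so the precision of low values, such as those near 0 in bud, is unknown.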

Other observations

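Likeness among the 91 genes was read from their profiles. For each gene the most similar other gene of the set was taken by Pearson's r of log2(TPM + 1) over the 12 libraries, as a description, since 8 of the libraries chose the genes. For 27 of the 91 (29.7%) it lay on a homoeologous chromosome, while 9.87% of the 4095 pairs in the set do. In 23 pairs each gene was the most similar to the other, and 8 of these pairs lay on homoeologous chromosomes. The leaf libraries are part of r, so the likeness of the pairs in leaf is no separate observation. TraesCS7A02G215800 and TraesCS7D02G217500 (r = 0.991) rose in leaf from 1.61 and 0.773 to 40.2 and 30.3 TPM and from 1.15 and 1.15 to 39.0 and 27.1 TPM. In shoot apex they had 33.9 and 27.7 and 39.0 and 30.3 TPM, and in vernalized bud 6.37 and 5.16 and 6.38 and 5.66 TPM. TraesCS3A02G367900 and TraesCS3D02G360900 (r = 0.988) rose in leaf from 0.810 and 0.972 to 30.9 and 27.9 TPM and from 1.09 and 0.584 to 21.3 and 28.4 TPM. TraesCS3B02G205100 and TraesCS3D02G180900 (r = 0.980) had higher apex levels, at 1064 and 1358 and at 441 and 639 TPM, against 256 and 300 and 99.5 and 103 TPM in vernalized apex, and rose in leaf from 29.2 and 17.0 to 241 and 191 TPM and from 6.51 and 6.10 to 145 and 134 TPM. Whether these pairs are homoeologues was not read from any table used here.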
